A study of Mus musculus with 16 samples.

Results

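The MG132 response of Atf5-knockdown mouse embryonic fibroblasts was compared with the MG132 response of control fibroblasts, gene by gene. MG132 is a peptide aldehyde that blocks the proteasome. All 16 arrays of the series, of total RNA, entered this comparison. Control cells are labelled as wild type with a scramble shRNA, and knockdown cells stably express a short hairpin RNA against ATF5. Each line received DMSO vehicle or 1 µM MG132 for 8 h, with 4 plates in each of the 4 groups by the treatment protocol. The labels do not tie single arrays to plates. All cells are cultured embryonic fibroblasts that carry an shRNA, and the labels do not say whether a line is a single clone. For each of 19938 genes the change with MG132 in control cells was subtracted from the change with MG132 in knockdown cells on the log2 scale. A negative difference therefore means a lower response in the knockdown line. Differences carry the limma standard error, adjusted p-values are Benjamini-Hochberg values of limma over all genes, and the threshold is 0.05.

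ATF5 is a bZIP transcription factor of the ATF/CREB family. When unfolded or undegraded proteins accumulate, stress kinases phosphorylate the translation factor eIF2. General protein synthesis then falls while translation of ATF4, and of ATF5, is favoured. ATF4 and its target CHOP (the product of Ddit3) switch on genes of amino acid supply, redox balance and cell death. Blocking the proteasome also engages the heat shock factor, which drives cytosolic chaperones, and NRF2, which drives antioxidant enzymes. The title of the series asks which genes depend on ATF5 when the proteasome is inhibited, and the difference of the responses addresses that question.

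The median log2 intensity of an array was 7.71 to 7.82, and precision is limited by how many arrays there are. The mean of 11 fibroblast markers lay between 10.06 and 10.44 on the 16 arrays. The means of the marker lists of macrophages, endothelium, epithelium, skeletal muscle, adipocytes and neurons lay between 6.51 and 7.76, and that of smooth muscle between 8.78 and 9.30. The fibroblast genes Vim and Fn1 read above 13 in every group, while Lum, a matrix proteoglycan on the same list, read 4.69 to 4.85 as group means. The 2 lines differ by more than Atf5: with vehicle, the positional gene Hoxc8 differed by 4.33 and the tight junction gene Cldn1 by -4.96 (knockdown minus control, log2). The hairpin and any other difference between the lines cannot be told apart here. Within the groups the arrays spread along a gradient with 37.8% of the within-group variance. Control vehicle 1 and 4, knockdown vehicle 1 and control MG132 4 lay toward one end of it, with scores of -14.6 to -4.27. Knockdown MG132 2 had a score of -4.27 as well. The first 4 were left out together as an alternative chosen from earlier results of these data, and knockdown MG132 2 was kept. Counts without these 4 arrays are given where they move a count by over 1.5 times.

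The response differed between the lines for 2903 of 19938 genes, which is 14.6% of the genes tested (limma). In RNA from whole plates, fewer responding cells and a smaller response per cell cannot be told apart. It was lower in the knockdown line for 2015 genes (10.1%) and higher for 888 (4.45%). Most differences were small. The median size among the called genes was 0.29 on the log2 scale, 206 called genes differed by 1.5-fold or more, and 29 (0.145%) differed by 2-fold or more, 12 of them lower and 17 higher. For 96.0% of all genes the 95% confidence interval of the difference lay inside 1.5-fold in either direction. When a difference above 1.5-fold was itself the hypothesis tested, 24 genes passed, 8 lower and 16 higher. Without the 4 arrays named above 2959 genes passed. The plot of the 2 responses against each other shows the called genes on both sides of the line of equal response.

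**Figure D1:**
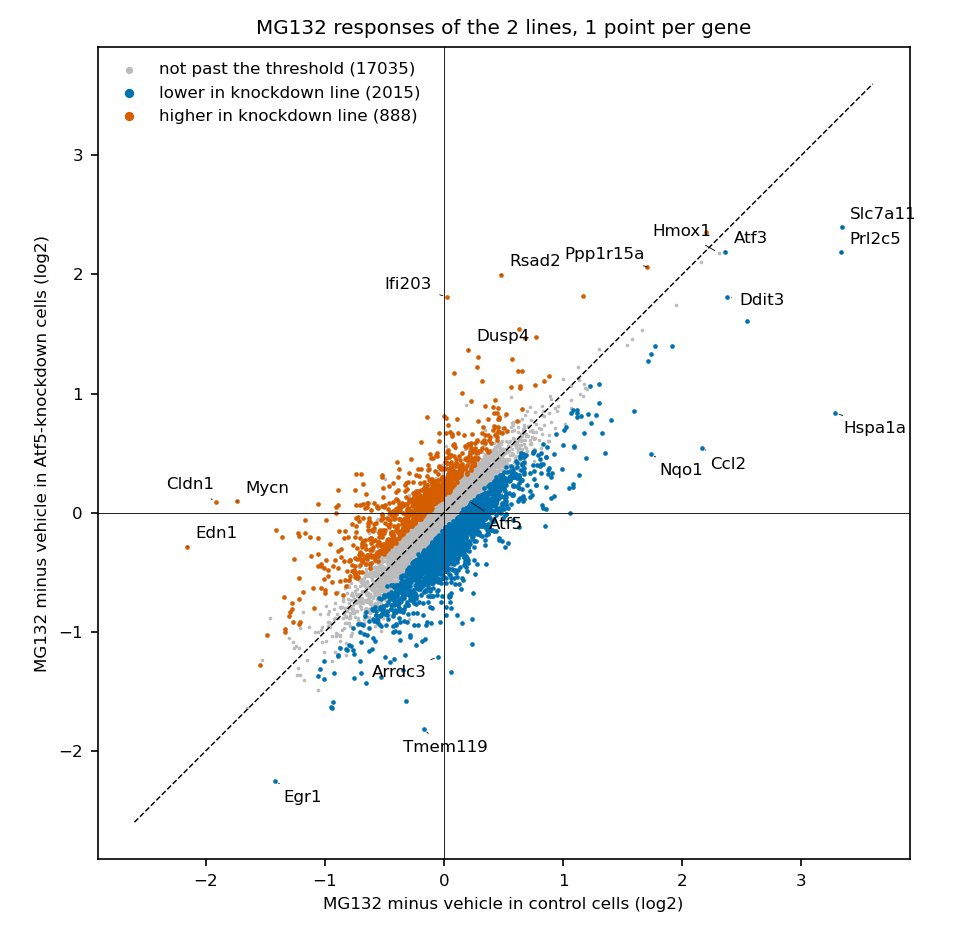
Each point is 1 of 19938 genes. The x axis is the log2 change with MG132 in control cells and the y axis that in knockdown cells (4 arrays per group); the dashed line marks equal responses. The 2015 blue genes responded less or more negatively in the knockdown line (limma adjusted p under 0.05), the 888 orange genes more positively, and Hspa1a and Cldn1 lie farthest from the line.

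MG132 changed 35.8% of all genes in control cells and 40.7% in knockdown cells (limma), and the genes with a called difference fell into a few patterns of these single-line responses. Of the 2015 genes with a lower response in the knockdown line, 736 fell in knockdown cells with no call in control cells, and 472 fell in both lines, further in the knockdown line. Another 399 rose in control cells with no call in knockdown cells, 240 rose in both lines but less in the knockdown line, and 144 rose in control and fell in knockdown cells. Of the 888 genes with a higher response, 249 fell in control cells with no call in the knockdown line, 215 fell in both but less in the knockdown line, 212 rose with a call in the knockdown line alone, 134 rose in both and 64 fell in control but rose in knockdown cells. Both lines changed with a call in the same direction for 5020 genes, and for 3959 of these no difference passed the threshold.

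**Figure D2:**
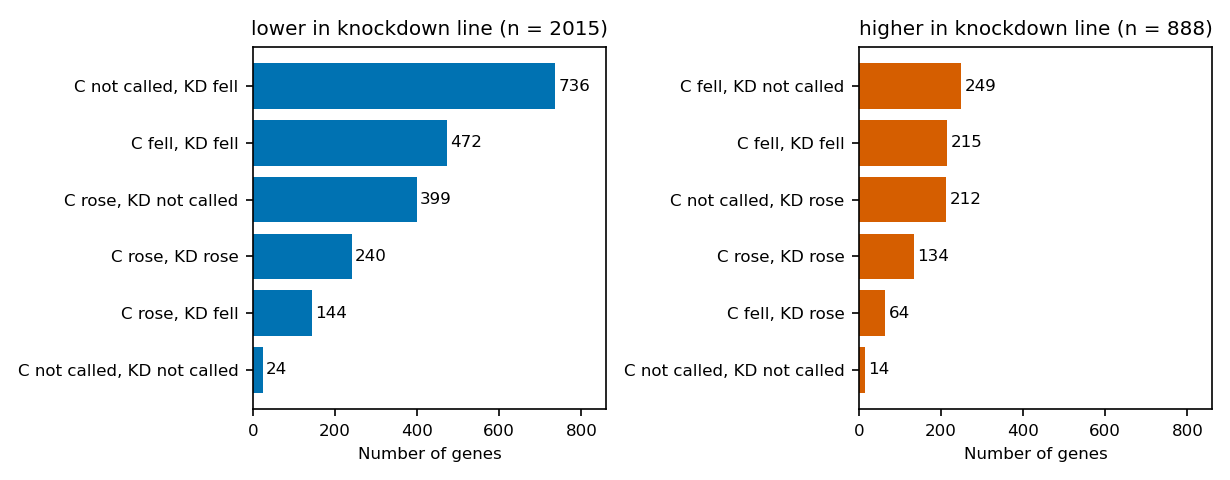
Bars give the number of genes (x axis) with a called difference, by the call in control cells (C) and in knockdown cells (KD). The left panel holds the 2015 genes that were lower in the knockdown line, and the right panel the 888 that were higher; a fall in knockdown cells with no call in control cells is the most frequent pattern on the left, with 736 genes.

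Atf5 itself was examined first. It read 8.68, 8.51, 8.46 and 8.62 on the 4 control arrays with vehicle and 8.75, 8.72, 8.68 and 8.91 with MG132. The knockdown arrays read 8.32, 8.39, 8.28 and 8.41 with vehicle and 8.45, 8.43, 8.45 and 8.49 with MG132. Every knockdown array lay below every control array of the same treatment, and the control groups with and without MG132 overlapped. The gap in Atf5 RNA was small, at -0.22 with vehicle and -0.31 with MG132 (knockdown minus control, log2). The difference of the responses of Atf5 was -0.09 ± 0.08 (95% confidence interval -0.25 to 0.07, limma adjusted p = 0.509), and 51.7% of all genes had a smaller one in size. Atf4, the factor most closely related to Atf5, rose by 0.32 in control and by 0.36 in knockdown cells, with a difference of 0.04 ± 0.04 (95% confidence interval -0.05 to 0.12, limma adjusted p = 0.665; on linear intensities a larger gain in knockdown cells passed, limma adjusted p = 0.0403).

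Of 21 measured ATF4 and CHOP stress regulators, 6 responded less in the knockdown line and 1 responded more, and the median difference was -0.09, against -0.01 over all genes. For this and every later list, the shares over all genes were 10.1% lower and 4.45% higher. On linear intensities the balance turned, with 2 lower and 6 higher (limma). Ddit3 read 9.02, 8.99, 9.13 and 9.00 in control cells with vehicle and 11.41, 11.39, 11.37 and 11.48 with MG132. In knockdown cells it read 9.76, 9.78, 9.71 and 9.77 with vehicle and 11.52, 11.62, 11.60 and 11.52 with MG132. The knockdown cells thus started higher and reached a slightly higher level, with a smaller step. Ddit3 rose 5.20-fold in control and 3.51-fold in knockdown cells, a difference of -0.57 ± 0.06 (limma adjusted p = 5.35e-06). In intensity units the gains of Ddit3 were 2201 and 2166, and their difference did not pass (limma adjusted p = 0.832).

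Nupr1, a small chromatin protein induced by stress, rose by 1.32 in control and by 0.67 in knockdown cells, a difference of -0.65 ± 0.05 (limma adjusted p = 3.14e-07). It read 10.91, 10.98, 10.97 and 10.91 in control cells with vehicle, 12.32, 12.22, 12.21 and 12.32 with MG132, 12.19, 12.22, 12.24 and 12.23 in knockdown cells with vehicle and 12.93, 12.87, 12.88 and 12.89 with MG132. Knockdown cells with vehicle already read about as high as control cells with MG132, and in intensity units the gains of Nupr1, 2962 and 2833, did not differ past the threshold (limma adjusted p = 0.596). Trib3, a pseudokinase that restrains ATF4 signalling, rose by 1.77 and 1.40, a difference of -0.37 ± 0.05 on the log2 scale (limma adjusted p = 1.49e-04) whose sign turned on the linear scale (limma adjusted p = 0.221 there). Trib3 read 9.11, 9.21, 9.18 and 9.18 in control cells with vehicle, 10.92, 10.95, 10.93 and 10.98 with MG132, 9.90, 9.75, 9.82 and 9.81 in knockdown cells with vehicle and 11.18, 11.27, 11.22 and 11.22 with MG132, higher in the knockdown line in both treatments. Ppp1r15a, which directs dephosphorylation of eIF2, was the 1 member that responded more, by 0.35 ± 0.06 (limma adjusted p = 6.39e-04). Atf3 rose by 2.36 and 2.19, and its difference of -0.17 ± 0.05 passed (limma adjusted p = 0.0419) but was lost without 12 of the 16 single arrays and after median centring (limma adjusted p = 0.0954). Chac1, which degrades glutathione, had a difference of -0.12 ± 0.05 that did not pass (limma adjusted p = 0.153), and on the linear scale its sign turned.

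The promoters of 5 genes just described or taken up next, Slc7a11 among them, hold the core letters of the C/EBP-ATF response element, TGATGNAA on either strand, to which ATF4 and related factors bind. They are shown because these genes rose together with MG132 while the size of their line difference ranged from that of Slc7a11 (-0.94) to that of Chac1. Among the genes named by rule Aspn, a dim gene, also holds the core and is not shown. It did not rise, with a change of 0.06 in control and -1.34 in knockdown cells. The promoter window runs from 250 bases before to 50 after the transcript start in RefSeq, assembly GRCm38.p6, and 82 of the 105 genes named by rule matched an entry. Capitals mark the matches, and the letters run 5′ to 3′ on the gene's strand.
Slc7a11: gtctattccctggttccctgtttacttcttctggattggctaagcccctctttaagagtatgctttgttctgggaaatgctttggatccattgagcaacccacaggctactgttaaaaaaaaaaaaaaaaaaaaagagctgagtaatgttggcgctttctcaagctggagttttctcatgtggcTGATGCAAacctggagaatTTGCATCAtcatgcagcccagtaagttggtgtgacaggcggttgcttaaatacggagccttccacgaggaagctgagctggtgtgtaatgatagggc
Nupr1: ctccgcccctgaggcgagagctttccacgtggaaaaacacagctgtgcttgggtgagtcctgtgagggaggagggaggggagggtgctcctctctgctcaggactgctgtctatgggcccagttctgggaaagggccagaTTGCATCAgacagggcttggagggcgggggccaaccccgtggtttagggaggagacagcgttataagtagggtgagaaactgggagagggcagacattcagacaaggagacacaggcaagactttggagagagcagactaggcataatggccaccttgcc
Trib3: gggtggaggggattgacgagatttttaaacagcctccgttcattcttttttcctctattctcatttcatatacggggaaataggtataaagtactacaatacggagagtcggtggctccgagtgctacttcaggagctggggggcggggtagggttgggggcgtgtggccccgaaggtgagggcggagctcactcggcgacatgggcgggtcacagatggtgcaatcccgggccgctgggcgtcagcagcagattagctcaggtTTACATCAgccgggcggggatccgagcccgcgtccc
Atf3: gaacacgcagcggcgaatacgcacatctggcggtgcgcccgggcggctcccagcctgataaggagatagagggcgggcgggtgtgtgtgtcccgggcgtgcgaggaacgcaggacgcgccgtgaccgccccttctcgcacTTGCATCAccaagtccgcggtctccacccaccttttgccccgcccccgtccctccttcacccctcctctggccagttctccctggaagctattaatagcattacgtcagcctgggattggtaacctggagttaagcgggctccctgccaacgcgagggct
Chac1: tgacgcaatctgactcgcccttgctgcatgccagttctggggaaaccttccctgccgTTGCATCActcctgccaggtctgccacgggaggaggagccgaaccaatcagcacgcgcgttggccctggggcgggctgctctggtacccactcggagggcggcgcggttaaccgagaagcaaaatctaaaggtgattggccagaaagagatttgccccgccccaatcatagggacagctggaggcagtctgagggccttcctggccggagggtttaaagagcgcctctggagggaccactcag
These windows lie at chr3:50443564-50443863 (- strand), chr7:126625421-126625720 (- strand), chr2:152344011-152344310 (- strand), chr1:191183284-191183583 (- strand) and chr2:119350992-119351291 (+ strand). Slc7a11 held 2 matches in opposite orientations, starting at bases 185 and 204 of its window, and the other 4 genes held 1 each. The core was present in 3.97% of all 32851 promoters in the table and in 3.62% of the tested genes with a promoter. Among genes with a lower response in the knockdown line it was present in 3.26%, and among those with a higher response in 3.09%. A match describes letters in this window and does not show binding.

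Genes of amino acid transport and synthesis split in both directions, with 7 of 21 members lower and 3 higher in the knockdown line and a median difference of -0.02. On linear intensities 3 were lower and 7 higher (limma). Slc7a11, the cystine-importing subunit of the cystine-glutamate exchanger, read 8.81, 8.93, 8.93 and 8.86 in control cells with vehicle and 12.19, 12.26, 12.23 and 12.21 with MG132. Knockdown cells read 9.37, 9.41, 9.31 and 9.49 with vehicle and 11.82, 11.77, 11.76 and 11.82 with MG132. The knockdown line lay above control cells with vehicle and below them with MG132, with no overlap in either treatment. Its induction was 10.1-fold in control and 5.27-fold in knockdown cells, a 1.92-fold smaller rise (log2 difference -0.94 ± 0.06, limma adjusted p = 3.21e-08). Slc7a3, a carrier of cationic amino acids, rose by 1.06 in control cells and changed by -0.01 in knockdown cells, where the groups overlapped (difference -1.07 ± 0.09, limma adjusted p = 1.71e-06). Aldh1l2, a mitochondrial folate enzyme, rose by 1.35 and 0.50 (difference -0.85 ± 0.06, limma adjusted p = 1.44e-07). In intensity units the gains of Aldh1l2 were 1368 and 1327, and their difference did not pass (limma adjusted p = 0.853).

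Cytosolic heat shock chaperones had a lower response in the knockdown line in 6 of 19 measured members and a higher one in 1, with a median difference of 0.00. The higher count was 0 without the 4 arrays and 2 without knockdown vehicle 1. Hspa1a, the inducible HSP70 chaperone, had the largest difference of all genes tested. It read 8.99, 9.14, 9.09 and 9.02 in control cells with vehicle and 12.27, 12.42, 12.38 and 12.31 with MG132. In knockdown cells it read 8.12, 8.17, 8.10 and 8.07 with vehicle and 9.12, 8.96, 8.92 and 8.82 with MG132. MG132-treated knockdown arrays thus lay around the level of untreated control arrays. The rise was 9.75-fold in control and 1.79-fold in knockdown cells, a 5.45-fold smaller induction (log2 difference -2.44 ± 0.08, limma adjusted p = 7.55e-12).

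This result belongs to 1 probe set. A second and brighter probe set, shared by Hspa1a and its near-identical neighbour Hspa1b, read 12.0 on average and rose by 2.46 in control and 2.29 in knockdown cells. Its difference of -0.16 ± 0.05 did not pass over all probe sets (limma adjusted p = 0.0755). How much of the Hspa1a difference reflects the gene, rather than what its own probes bind, was not tested. The Hspa1a promoter is shown because 1 pair of inverted GAA units, GAANNTTC, the core of a heat shock element, lies in it in capitals, at chr17:34972107-34972406 (- strand) of GRCm38.p6.
Hspa1a: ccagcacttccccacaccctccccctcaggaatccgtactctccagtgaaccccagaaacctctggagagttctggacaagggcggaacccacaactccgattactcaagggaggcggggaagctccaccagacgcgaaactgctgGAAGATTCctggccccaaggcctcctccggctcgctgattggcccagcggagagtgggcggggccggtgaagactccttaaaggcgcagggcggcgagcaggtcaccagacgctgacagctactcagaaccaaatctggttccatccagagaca
The same letters occur in 7.86% of all promoters of this length. Other chaperone genes differed less: Dnajb1, an HSP40 partner of HSP70, rose by 1.27 and 0.82 (difference -0.46 ± 0.05, limma adjusted p = 1.18e-05). Hspa4l, a nucleotide exchange factor of the HSP110 group, rose by 1.00 and 0.57 (difference -0.42 ± 0.06, limma adjusted p = 1.83e-04), but on the linear scale its gain was larger in the knockdown line, where its level was higher throughout.

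**Figure D3:**
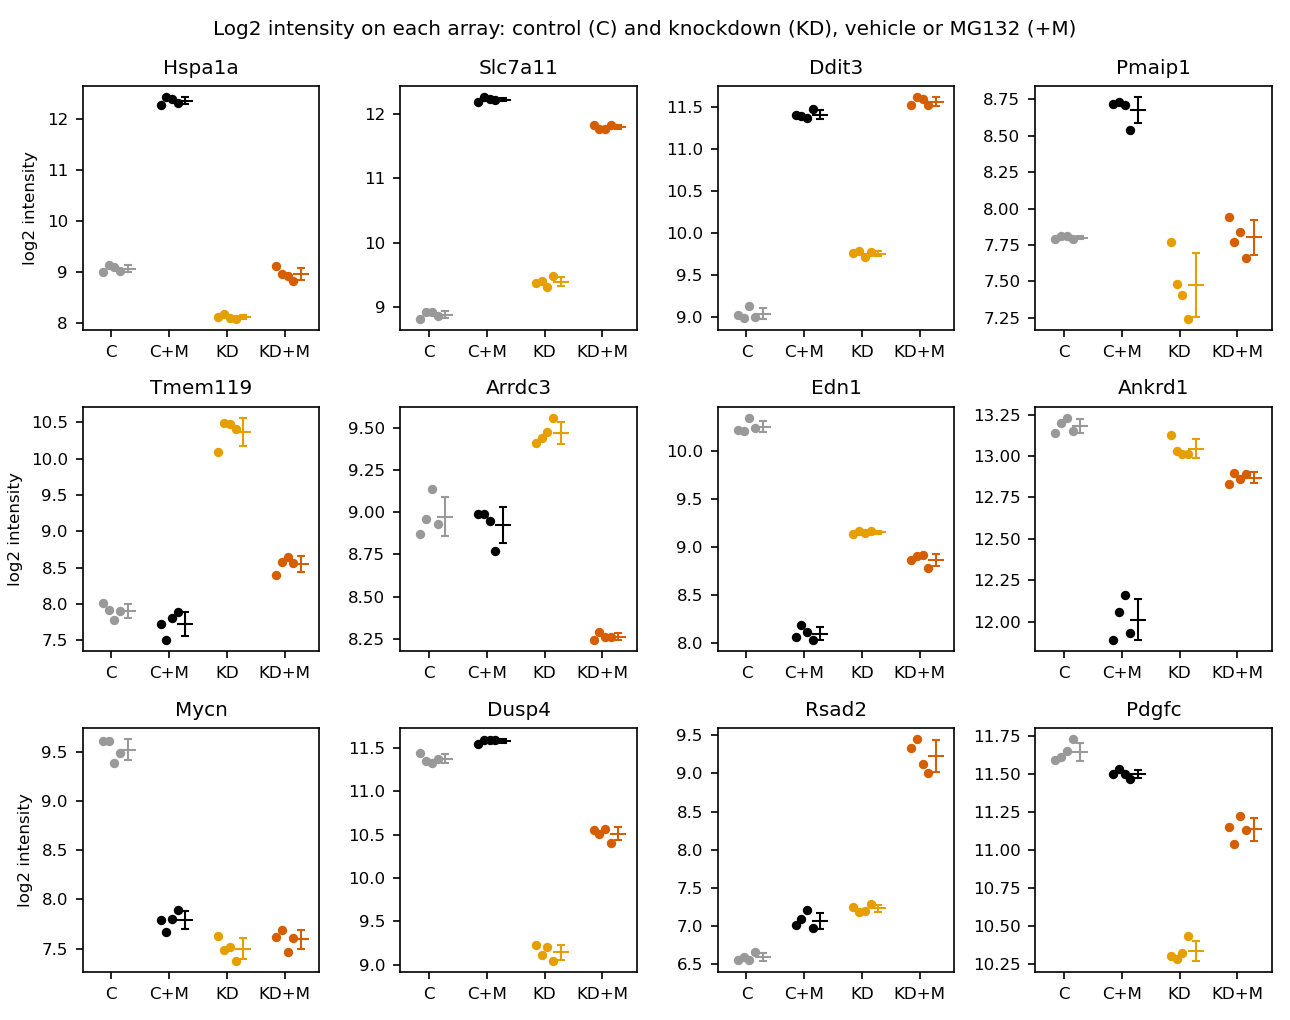
Each panel shows 1 gene, with the log2 intensity of each array on the y axis and the groups on the x axis: control with vehicle (C), control with MG132 (C+M), knockdown with vehicle (KD) and knockdown with MG132 (KD+M). Points are the 4 arrays of a group, and the bar beside them is the mean with its SD. Hspa1a, Slc7a11, Ddit3 and Pmaip1 climb less in the knockdown line, Tmem119 and Arrdc3 fall there, Edn1, Ankrd1 and Mycn fall mainly in control cells, and Dusp4, Rsad2 and Pdgfc climb in the knockdown line.

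Of 24 NRF2 antioxidant genes, 4 responded less in the knockdown line and 2 more, with a median of -0.02. On linear intensities the balance turned to 3 lower and 7 higher (limma). Nqo1, a quinone reductase, read 8.08, 8.34, 8.23 and 8.16 in control cells with vehicle and 9.96, 10.01, 9.92 and 9.86 with MG132, against 11.55, 11.60, 11.59 and 11.54 and then 12.09, 12.08, 12.02 and 12.05 in knockdown cells. The knockdown line lay above the control line in both treatments. Nqo1 rose 3.33-fold in control and 1.40-fold in knockdown cells, a log2 difference of -1.25 ± 0.07 (limma adjusted p = 9.83e-09). On the linear intensity scale the direction turned, with a gain of 686 units in control and 1230 units in knockdown cells (limma adjusted p = 1.01e-05). Srxn1, which repairs oxidised peroxiredoxins, rose by 1.72 and 1.27 (difference -0.44 ± 0.05, limma adjusted p = 4.87e-05) and kept its direction on that scale. Hmox1, the inducible heme oxygenase, rose by 2.31 and 2.18, and its difference of -0.12 ± 0.05 did not pass (limma adjusted p = 0.143) and turned its sign on the linear scale.

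NF-kappaB and chemokine genes responded less in the knockdown line in 11 of 22 members and more in 2, with a median difference of -0.19. On linear intensities 7 were lower and 6 higher, and the higher count of 2 became 1 without the 4 arrays, control vehicle 4 or control MG132 1 (limma). NF-kappaB is held in the cytosol by inhibitors that the proteasome destroys, and its targets include chemokines and its own inhibitors. Ccl2, a monocyte attractant, read 9.14, 9.36, 9.38 and 9.23 in control cells with vehicle and 11.47, 11.39, 11.38 and 11.53 with MG132. In knockdown cells it read 12.51, 12.43, 12.43 and 12.45 with vehicle and 13.04, 13.03, 12.95 and 12.98 with MG132. Ccl2 was higher in the knockdown line in both treatments, and its step with MG132 was smaller there, at 1.46-fold against 4.48-fold (log2 difference -1.62 ± 0.07, limma adjusted p = 8.10e-10).

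Cxcl10, an interferon-inducible chemokine, read 8.17, 8.41, 8.24 and 8.35 in control cells with vehicle and 10.88, 10.83, 10.86 and 10.78 with MG132. In knockdown cells it read 9.82, 9.98, 9.89 and 10.10 and then 11.69, 11.49, 11.59 and 11.44. The rise was 5.84-fold and 3.04-fold (difference -0.94 ± 0.09, limma adjusted p = 6.17e-06). On the linear scale both chemokines gained more in the knockdown line, Ccl2 by 2577 against 2163 units (limma adjusted p = 0.0600) and Cxcl10 by 2016 against 1516 (limma adjusted p = 0.00392). The inhibitor gene Nfkbia rose by 0.86 in control and 0.21 in knockdown cells (difference -0.65 ± 0.05, limma adjusted p = 5.83e-07), and the subunit gene Nfkb2 by 0.88 and 0.35 (-0.52 ± 0.04, limma adjusted p = 1.33e-06). Both kept their direction on the linear scale. The median member of this list was 1.02 higher in the knockdown line with vehicle, a comparison that shares its vehicle arrays with the difference.

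**Figure D4:**
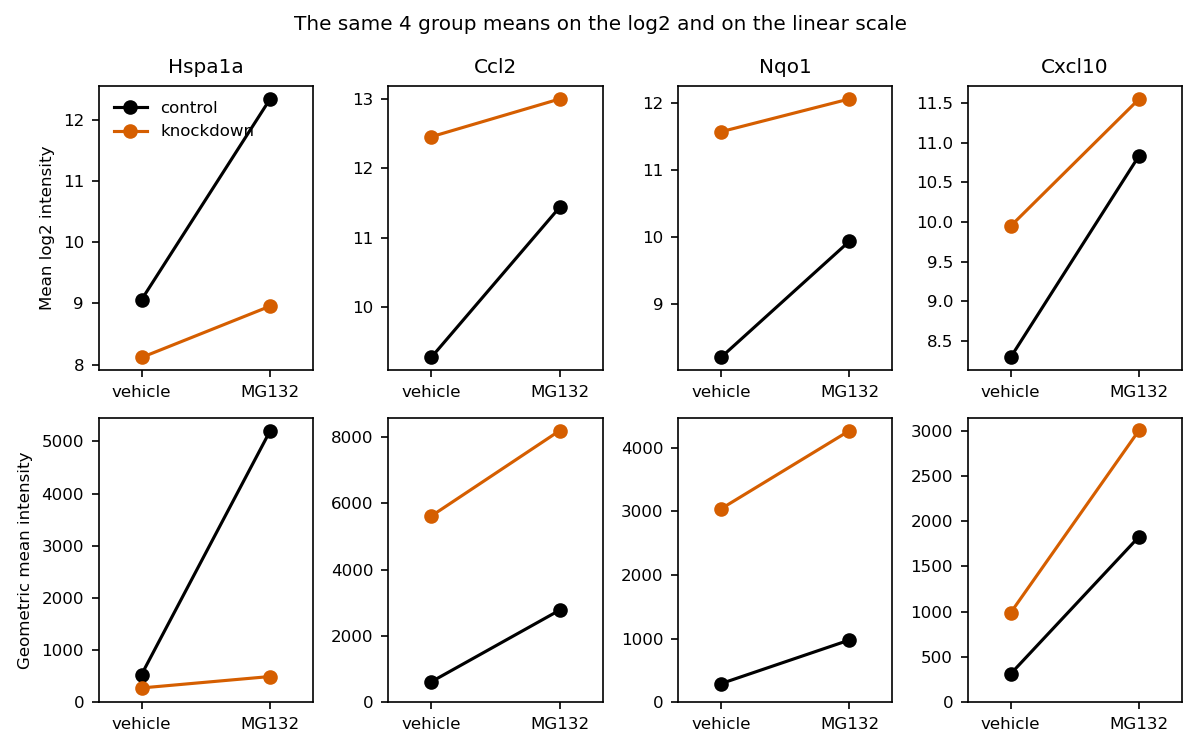
Group means of 4 genes (4 arrays per group) with vehicle and MG132 on the x axis, in control (black) and knockdown cells (orange). The y axis is the mean log2 intensity in the upper row and the geometric mean intensity in the lower row. Hspa1a rises less in the knockdown line in both rows, whereas the smaller log2 rise of Ccl2, Nqo1 and Cxcl10 in the knockdown line becomes a larger gain in intensity units; their level with vehicle was higher there.

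The interferon-stimulated genes also had more lower than higher responses, 8 and 2 of 21, with a median of -0.09; the higher count was 1 without the 4 arrays and in 9 of the 16 fits without 1 array. Irf1, an interferon regulatory factor, had a difference of -0.46 ± 0.08 (limma adjusted p = 1.25e-03; 0.107 on linear intensities) on its brighter probe set, while a dimmer one gave 0.13 ± 0.07 and did not pass over all probe sets (limma adjusted p = 0.339). Ddx58, the viral RNA sensor RIG-I, changed by 0.29 in control and by -0.16 in knockdown cells (difference -0.45 ± 0.07, limma adjusted p = 3.56e-04). Rsad2, the antiviral protein viperin, went the other way. It read 6.55, 6.60, 6.55 and 6.66 in control cells with vehicle and 7.01, 7.09, 7.21 and 6.97 with MG132. Knockdown cells read 7.25, 7.18, 7.20 and 7.29 with vehicle and 9.34, 9.45, 9.12 and 9.00 with MG132, a level that no other group approached. The difference was 1.52 ± 0.11 (limma adjusted p = 2.60e-07).

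Ifi203 and Ifi202b, interferon-inducible genes of the p200 cluster that share sequence, rose by 1.81 and 1.18 in knockdown cells and changed by 0.02 and 0.08 in control cells. Ifi203 read 5.78, 5.69, 5.73 and 5.57 and then 5.92, 5.69, 5.67 and 5.58 in control cells, against 7.88, 8.52, 8.46 and 8.51 and then 10.28, 10.07, 10.11 and 10.15 in knockdown cells. Both control groups were dim and overlapped. The Ifi203 difference was 1.79 ± 0.16 (limma adjusted p = 2.34e-06) and that of Ifi202b 1.09 ± 0.13 (limma adjusted p = 3.04e-05), and probes of this cluster may bind related members.

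Proteins of the Sprouty and DUSP families are induced by ERK, the last kinase of the growth factor cascade, and dampen it in turn. Of 15 such feedback genes 9 had a higher response in the knockdown line and 1 a lower one, with a median difference of 0.23. Spry1, Spry2 and Spry4 fell in both lines, less in knockdown cells, with Spry4 at -1.06 and -0.21 (difference 0.85 ± 0.07, limma adjusted p = 9.78e-07) and Spry1 at -0.88 and -0.16 (0.72 ± 0.06, limma adjusted p = 1.64e-06). With vehicle both were already lower in the knockdown line, Spry4 by -0.78 and Spry1 by -0.92 (knockdown minus control). With MG132 the lines lay closer, at 0.07 and -0.20. The median member of the list differed by -0.39 with vehicle, on arrays that also enter the difference. Dusp4, a nuclear MAP kinase phosphatase, read 11.45, 11.35, 11.33 and 11.38 in control cells with vehicle and 11.55, 11.59, 11.60 and 11.59 with MG132. Knockdown cells read 9.23, 9.11, 9.20 and 9.04 with vehicle and 10.56, 10.51, 10.57 and 10.41 with MG132. It rose 1.15-fold from a high level in control cells and 2.58-fold from a low level in knockdown cells (log2 difference 1.16 ± 0.06, limma adjusted p = 1.29e-08).

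Immediate early genes, which growth factors and stress switch on within minutes, had 12 higher and 3 lower responses among 23, with a median of 0.17. Ier5 changed by 0.02 and 0.67 (difference 0.65 ± 0.06, limma adjusted p = 3.92e-06) and Klf6, a zinc finger factor, by -0.12 and 0.36 (0.48 ± 0.04, limma adjusted p = 2.94e-06). For Klf6 the lines differed by -0.465 with vehicle and by 0.02 with MG132 (knockdown minus control). Egr1, a zinc finger factor of the same class of genes, ran against Ier5 and Klf6. Its response was -1.42 in control and -2.25 in knockdown cells (difference -0.84 ± 0.07, limma adjusted p = 9.94e-07).

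YAP and SRF are factors that respond to cell tension and the actin cytoskeleton. Of 19 of their targets 10 had a higher response in the knockdown line and 0 had a lower one (limma; 1 lower at an unadjusted p under 0.05), with a median of 0.17. Ankrd1, a cardiac and fibroblast ankyrin repeat protein, read 13.14, 13.20, 13.23 and 13.15 in control cells with vehicle and 11.89, 12.06, 12.16 and 11.93 with MG132. Knockdown cells read 13.13, 13.03, 13.01 and 13.01 with vehicle and 12.83, 12.90, 12.86 and 12.89 with MG132. With vehicle the knockdown arrays lay just below the control arrays, and with MG132 the control arrays lay well below the knockdown arrays. It fell by 1.17 and 0.17, a difference of 1.00 ± 0.07 (limma adjusted p = 2.60e-07). Ccn1, a matricellular protein, changed by -0.39 and 0.30 (difference 0.69 ± 0.05, limma adjusted p = 5.67e-07).

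Edn1, the precursor of the vasoconstrictor endothelin, is on the same list and had the second largest higher response among the named genes. It read 10.22, 10.21, 10.34 and 10.24 in control cells with vehicle and 8.06, 8.19, 8.11 and 8.03 with MG132, against 9.13, 9.17, 9.14 and 9.16 and then 8.86, 8.90, 8.92 and 8.78 in knockdown cells. The order of the lines turned between the treatments, with knockdown arrays below control arrays with vehicle and above them with MG132. The difference was 1.87 ± 0.06 (limma adjusted p = 7.55e-12). Adm, the precursor of the vasodilator adrenomedullin, fell by 0.74 in control and rose by 0.33 in knockdown cells (difference 1.06 ± 0.08, limma adjusted p = 3.14e-07). For Adm the lines differed by -1.16 with vehicle and by -0.10 with MG132 (knockdown minus control).

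Several of the largest differences belong to genes that 1 line expresses little. Mycn, a MYC family factor, read 9.61, 9.61, 9.39 and 9.49 in control cells with vehicle and 7.79, 7.67, 7.80 and 7.89 with MG132. Knockdown cells read 7.63, 7.48, 7.52 and 7.37 and then 7.62, 7.69, 7.46 and 7.61, with overlap, so the fall was seen in control cells, down to about the level of the knockdown line. Its difference was 1.83 ± 0.09 (limma adjusted p = 5.53e-09). Cldn1 read 11.05, 11.27, 11.02 and 11.16 in control cells with vehicle and 9.24, 9.34, 9.42 and 8.83 with MG132. In knockdown cells it read 6.34, 6.09, 6.12 and 6.13 and then 6.44, 6.54, 6.14 and 5.92. The difference of 2.01 ± 0.18 (limma adjusted p = 2.76e-06) thus sets a fall in control cells against a probe set that was dim in the knockdown line in both treatments. The neuritin gene Nrn1 (difference 1.02 ± 0.13) had the same form, with mean levels of 9.42 or above in control and 6.07 or below in knockdown cells. When both lines had to lie above the median array level of 7.76, 10665 genes were left, 3266 of these passed, and 11 rather than 29 differed by 2-fold or more. Of the called genes 16.3% had a line mean at or below that level, against 46.5% of all genes.

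The genes with a lower response because they fell in the knockdown line included Tmem119, a transmembrane protein known from bone and microglia. It read 8.01, 7.91, 7.78 and 7.90 and then 7.72, 7.50, 7.80 and 7.89 in control cells, where the groups overlapped. In knockdown cells it read 10.09, 10.49, 10.48 and 10.41 with vehicle and 8.40, 8.58, 8.65 and 8.56 with MG132. The difference was -1.65 ± 0.13 (limma adjusted p = 5.55e-07). Averaged over both treatments, Arrdc3, an alpha-arrestin that guides receptor turnover, was at a similar level in control (8.95) and knockdown cells (8.87). It read 8.87, 8.96, 9.14 and 8.93 and then 8.99, 8.99, 8.95 and 8.77 in control cells. Knockdown cells read 9.41, 9.44, 9.48 and 9.56 with vehicle and 8.24, 8.29, 8.26 and 8.26 with MG132, above and then below every control array. Its difference was -1.16 ± 0.08 (limma adjusted p = 1.87e-07). Txnip, another alpha-arrestin and an inhibitor of thioredoxin, rose by 0.84 in control cells and changed by -0.12 in knockdown cells (difference -0.96 ± 0.08, limma adjusted p = 1.40e-06).

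Both responses passed the threshold in opposite directions for 208 genes. The difference passed for all 208, but this follows from how these genes were selected and is not a separate result. With opposite signs the sizes of both responses add up in the difference, while its standard error grows by less. Pdgfc, a platelet-derived growth factor, read 11.59, 11.61, 11.65 and 11.73 in control cells with vehicle and 11.50, 11.53, 11.50 and 11.47 with MG132. Knockdown cells read 10.30, 10.28, 10.32 and 10.43 with vehicle and 11.15, 11.04, 11.22 and 11.13 with MG132, so that the gap between the lines narrowed. It fell by 0.14 and rose by 0.80 (difference 0.95 ± 0.06, limma adjusted p = 9.43e-08). Has2, a hyaluronan synthase, fell by 0.40 and rose by 0.42 (0.82 ± 0.09, limma adjusted p = 1.55e-05). Dkk2, a secreted modulator of Wnt signalling, fell by 0.89 and rose by 0.19 (1.08 ± 0.08, limma adjusted p = 4.72e-07). Parp12, an antiviral ADP-ribosyltransferase, rose by 0.54 in control and fell by 0.26 in knockdown cells (-0.79 ± 0.05, limma adjusted p = 9.52e-08).

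Cell cycle genes with a called difference had a lower response in the knockdown line. Of 21 mitosis genes 10 were lower and 0 higher (limma), with a median difference of -0.15, and of 26 DNA replication genes 8 were lower and 0 higher, with a median of -0.11. The spindle protein gene Nusap1 rose by 0.22 in control cells and fell by 0.17 in knockdown cells (difference -0.40 ± 0.06, limma adjusted p = 4.18e-04), and the kinetochore gene Cenpf rose by 0.51 and by 0.14 (-0.37 ± 0.07, limma adjusted p = 1.41e-03). Cyclin E1 (Ccne1), which drives entry into S phase, fell by 0.56 and 0.90 (-0.34 ± 0.06, limma adjusted p = 7.43e-04). Knockdown minus control, Ccne1 differed by 0.52 with vehicle and 0.19 with MG132, and Cenpf by 0.46 and 0.09. Nusap1 differed by 0.29 with vehicle and by -0.10 with MG132. At an unadjusted p under 0.05, 0 mitosis and 1 replication gene were higher. The replication counts were 13 lower on linear intensities and 1 higher without control MG132 2. Without the 4 arrays of the gradient, the counts were again 10 and 8.

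Cholesterol synthesis genes had a higher response in 11 of 19 members and a lower one in 0 (limma; 3 at an unadjusted p under 0.05), with a median difference of 0.20. The lower count was 2 without control MG132 4 and on linear intensities, and 1 without knockdown vehicle 2 or knockdown MG132 3, and the higher count was 8 without the 4 arrays. Msmo1, a sterol demethylase, fell by 0.17 in control and rose by 0.26 in knockdown cells (difference 0.43 ± 0.05, limma adjusted p = 3.35e-05). Insig1, which holds the sterol sensor in the endoplasmic reticulum, rose by 0.29 and 0.77 (0.48 ± 0.08, limma adjusted p = 7.94e-04). Ribosome biogenesis genes were higher in 9 of 25 and lower in 0 (limma; also 0 at an unadjusted p under 0.05), and all 25 had a difference of 0 or above. Dkc1, the pseudouridine synthase of small nucleolar particles, changed by -0.31 and 0.02 (0.33 ± 0.06, limma adjusted p = 1.10e-03). The ribosome count fell to 5 both with each array centred on its median and without the 4 arrays, and was 15 on linear intensities. The glycolytic enzyme gene Hk2 fell by 0.52 in control and rose by 0.13 in knockdown cells (0.64 ± 0.05, limma adjusted p = 8.88e-07). For Hk2 the lines differed by -0.66 with vehicle and by -0.01 with MG132 (knockdown minus control).

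Death genes moved both ways. Of 24 BCL2 family and caspase genes, 4 had a higher and 3 a lower response. The lower count was 6 without control MG132 4, 5 without the 4 arrays and 1 after a second quantile normalization, so the balance was not stable. Pmaip1, which encodes the death-promoting protein NOXA, read 7.79, 7.81, 7.81 and 7.79 in control cells with vehicle and 8.72, 8.73, 8.71 and 8.54 with MG132. Knockdown cells read 7.77, 7.48, 7.41 and 7.24 with vehicle and 7.94, 7.77, 7.84 and 7.66 with MG132, with overlap. It rose 1.83-fold in control and 1.25-fold in knockdown cells (log2 difference -0.55 ± 0.12, limma adjusted p = 5.30e-03). Bcl2l1, which encodes the survival protein BCL-XL, fell by 0.71 and 0.36 (difference 0.35 ± 0.06, limma adjusted p = 4.73e-04). Bcl2l11, which encodes the death-promoting protein BIM, changed by 0.06 and 0.42 (0.37 ± 0.08, limma adjusted p = 4.97e-03), and the death receptor gene Fas rose by 0.46 and 0.88 (0.42 ± 0.08, limma adjusted p = 1.28e-03). Bcl2 fell in both lines, by 1.01 and 1.17, and its difference of -0.16 ± 0.05 did not pass (limma adjusted p = 0.0621).

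The proteasome genes themselves held few called differences. Of 31 proteasome subunit genes 3 had a higher response in the knockdown line and 0 a lower one (limma; 1 lower at an unadjusted p under 0.05), that is 9.68% against the 14.6% of all genes, although 27 rose in control and 30 in knockdown cells. The higher count was 1 without control vehicle 3, knockdown vehicle 2 or control MG132 4, with median centring and with the replicate block, and 7 on linear intensities. The lower count was 1 without control vehicle 1 or 3, knockdown vehicle 1 or knockdown MG132 3. Psmd7, a subunit of the regulatory cap, differed by 0.30 ± 0.08 (limma adjusted p = 0.0187). Of 18 cytosolic tRNA synthetases 1 passed, which became 0 without the 4 arrays, control vehicle 4 or knockdown vehicle 2, 2 without knockdown vehicle 4 and 4 on linear intensities. Of 13 mitochondrial chaperones and proteases 0 passed (limma; 1 at an unadjusted p under 0.05), where Afg3l2 had the smallest p (difference 0.14 ± 0.06, limma adjusted p = 0.104). Of 25 genes of endoplasmic reticulum folding and degradation 4 were higher and 1 lower, 20% in all. The same share was 14.6% over all genes and 19.8% among the 4985 brightest. Xbp1, a factor of the unfolded protein response, was among the higher members and changed by 0.04 and 0.47 (difference 0.43 ± 0.07, limma adjusted p = 4.32e-04). Hspa5, the main chaperone of that compartment, rose by 0.59 and 0.69, and its difference of 0.10 ± 0.04 did not pass (95% confidence interval 0.01 to 0.19, limma adjusted p = 0.120), though on linear intensities a larger gain in knockdown cells did (limma adjusted p = 0.00236). The count of 1 lower member was 0 without control vehicle 2 or 3, and on linear intensities 7 were higher and 2 lower.

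**Figure D5:**
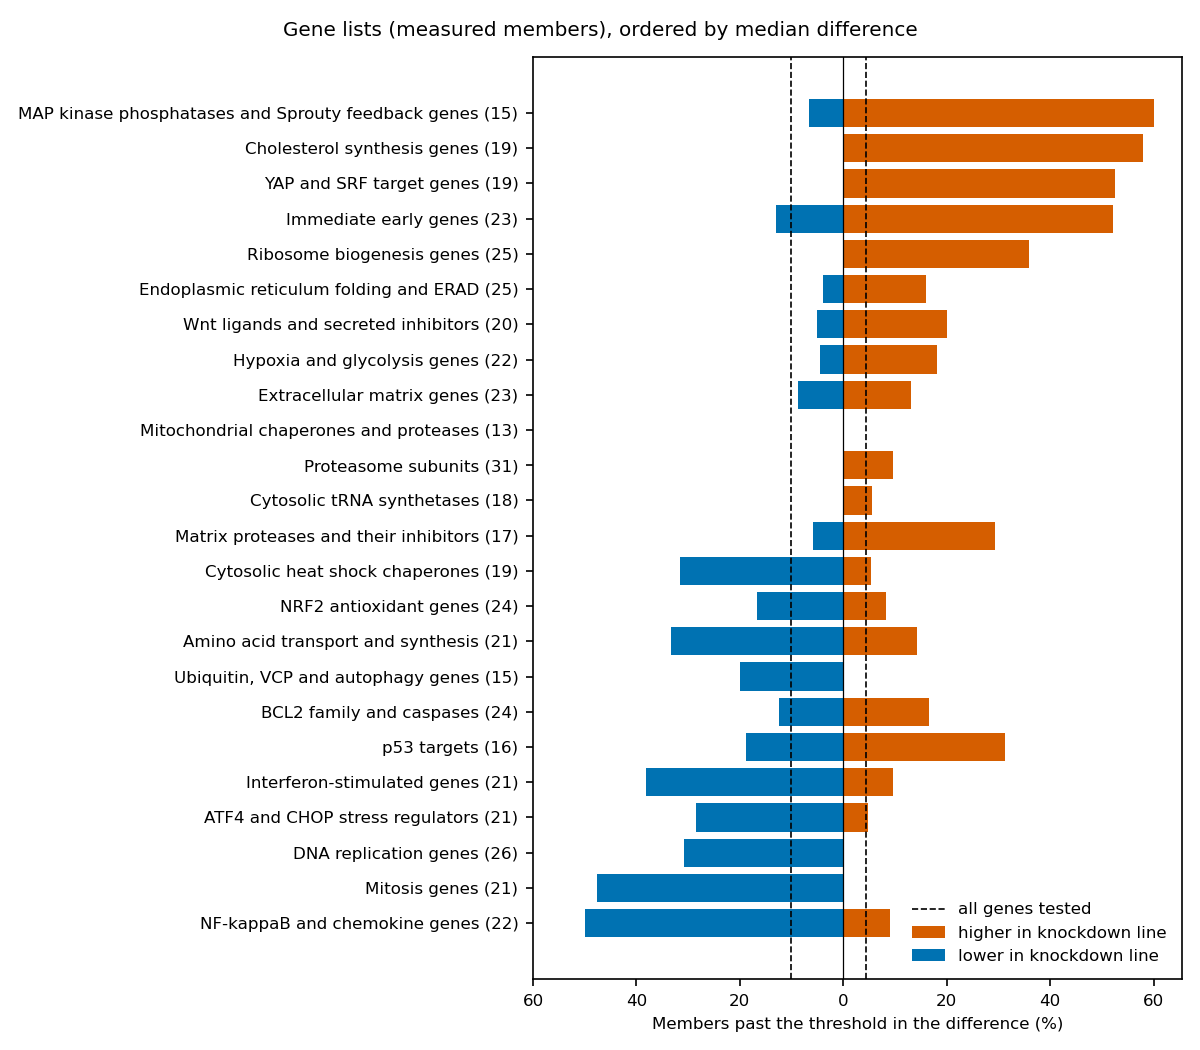
Bars give the percentage of measured members (number in brackets) of each of 24 gene lists whose difference passed the threshold, to the right where the response was higher in the knockdown line and to the left where it was lower. The dashed lines mark 4.45% and 10.1%, the shares over all genes tested, and lists are ordered by their median difference. Feedback, cholesterol, YAP and SRF, and immediate early genes extend farthest to the right, and NF-kappaB and mitosis genes farthest to the left.

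Matrix genes showed no single direction, with 3 higher and 2 lower of 23, and 1 lower without the 4 arrays. In all 21.7% of them passed, against 14.6% over all genes. Thbs1, which encodes thrombospondin, fell by 1.30 in control and 0.87 in knockdown cells (difference 0.44 ± 0.05, limma adjusted p = 1.91e-05), and Thbs2 changed by 0.10 and fell by 0.60 (-0.70 ± 0.12, limma adjusted p = 9.55e-04). A separate list of 17 matrix proteases and their inhibitors had 5 higher and 1 lower responses (35.3% in all), and 3 higher without the 4 arrays (limma). On it, Adamts1, a secreted matrix protease, fell by 0.38 in control and rose by 0.37 in knockdown cells (0.75 ± 0.08, limma adjusted p = 7.04e-06). Ubiquitin, VCP and autophagy genes were lower in 3 of 15 and higher in 0 (limma, and also 0 at an unadjusted p under 0.05). That is 20% in all, against 14.6% over all genes and 19.8% among the 4985 brightest. Among these Zfand2a, a proteasome-binding stress protein, rose by 1.21 and 0.82 (difference -0.38 ± 0.04, limma adjusted p = 2.13e-05). Called differences were also more frequent at higher signal: 2.31% of genes passed among the 4984 dimmest, 7.78% and 28.3% in the next equal groups and 19.8% among the 4985 brightest. The 8 marker lists of other tissues and of fibroblasts hold only 8 to 11 genes each, and none had more than 2 members with a called difference. The called share was 25% for neuron, 20% for endothelium, 18.2% for fibroblast and 10% for epithelium markers, against 14.6% over all genes. It was 0 for the other lists.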

How the data were processed

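The authors deposited log2 intensities of 35556 probe sets on 16 arrays, made with RMA and Partek per the submitters' processing notes, which give no settings. Probe sets were named through the platform table (1621 with several symbols and 12146 not listed were left out), and the brightest probe set per gene was kept, 19938 genes. RMA equalises arrays, so a change of most genes one way would be hidden. Group means were fitted without a filter in R 4.3.3, using limma 3.58.1 (moderated by eBayes, tests two-sided, 12 residual degrees of freedom plus 4.12 from the prior), checked on simulated data. The labels give 4 plates per group but do not tie single arrays to plates. The p-values therefore reflect the spread among these samples alone, possibly a technical one. The members and lists were chosen with earlier results of these data known. Named genes are the 15 highest and 15 lowest called differences outside gene models, clones, small RNAs and chemosensory receptors, up to 3 called genes per list (otherwise the smallest p), 10 genes of opposite responses and a panel; 1 gene and 1 list are not reported here. Alternatives covered normalization, linear intensities, filters, probe sets, variance prior, weights, a minimum fold, the replicate block and left-out arrays. Figures used matplotlib 3.10.9.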

Additional observations from a re-analysis of the deposited data

Results flagged for a closer look

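The number of genes whose response differed between the lines, 2903, is listed here because an interaction is a difference of effects between 2 groups; the report describes it. Among 20 genes given array by array, 1 array stood apart from the other 3 in 4 of 80 groups, where chance gives about 1 in 20. For Pmaip1, control MG132 array 4 read 8.54 against 8.71 for the nearest. In the other 3 it was knockdown vehicle array 1: Ankrd1 read 13.13 against 13.03, Cldn1 6.34 against 6.13 and Ifi203 7.88 against 8.46. Both arrays are among the 4 at one end of the within-group gradient, and the calls of these 4 genes held without each single array.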

How the results depend on the processing

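With each of the 16 arrays left out in turn, 2325 to 3387 genes passed, 748 to 992 higher and 1520 to 2401 lower, with 26 to 33 at 2-fold or more, and 2116 of the 2903 genes passed with the same sign in all 16 fits. A second quantile normalization gave 2771 genes, 1680 lower and 1091 higher, and 2416 of them were among the 2903. The lower share was thus 60.6%, against 69.4% in the main fit. Median centring gave 2381 genes (71.2% lower), array weights 4095 (67.5% lower) and every probe set 2945 (67.2% lower). The replicate block gave 2668, of which 2564 were among the 2903. Deviations from the group mean had a median r of 0.09 between same-numbered arrays (24 pairs, 10 above 0.1, from -0.50 to 0.40). Between arrays of other numbers the median r was -0.04 (72 pairs). Deviations cancel out within a group, so these medians are not independent of each other. Whether same-numbered arrays share a deviation was not tested, and the main fit took no pairing from the numbers. Tested against a minimum of 1.5-fold, 24 genes passed, 16 higher and 8 lower, 19 of them at 2-fold or more. With both lines above the median level, a filter chosen after seeing the data, 11 differed by 2-fold or more. Of 98 named genes with a call, 93 kept it in every alternative run for them (24 to 27 each, since filters left some out) other than the linear scale and the minimum fold; Atf3, Gadd45a, Vars, Psma2 and Psma5 lost it in some. On linear intensities 33 of the 2903 genes turned their sign. Of the named genes these were, in intensity units, Ccl2 (415), Nqo1 (544), Prl2c5 (1214), Trib3 (90.2), Cxcl10 (504), Hspa4l (287) and Blvrb (360), besides the uncalled Chac1 (731), Hmox1 (520) and Bcl2 (280). No named gene reversed under the other alternatives run.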
